A study of Mus musculus with 2 samples.

Results

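The 10 genes described here encode elastin (Eln), the fibrillins (Fbn1, Fbn2), the fibulins (Fbln1, Fbln2, Fbln5, Efemp1, Efemp2) and the microfibril-associated proteins Mfap4 and Mfap5. They were chosen by gene name, with earlier results of these data known. All 10 had a row in both deposited tables, out of 49490 gene symbols in all. The series sequenced RNA of Nestin+ mesenchymal stromal cell cultures, 1 from bone marrow and 1 from heart, of C57BL/6 Nestin-GFP transgenic mice, 7 days old, in which a green fluorescent reporter marks cells that use the Nestin gene. Each tissue gave 1 library of cells at passage 10, so no difference has a replicate check and no p-value was computed. The medium of the heart culture held 20 ng/ml EGF, 20 ng/ml bFGF and 4 ng/ml cardiotrophin-1, and the bone marrow culture had a different one; the effects of tissue and of medium cannot be told apart.

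Elastic fibres let arteries, heart valves, lung and skin stretch and recoil. Elastin forms their core, laid down on a scaffold of fibrillin microfibrils. The fibulins Fbln5 and Efemp2 bring elastin, microfibrils and lysyl oxidase enzymes together, and the oxidases crosslink elastin into a polymer that lasts for much of an animal's life. Fibrillin microfibrils also exist without elastin and hold growth factors of the TGF-beta family in store.

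In both cultures the scaffold gene Fbn1 and the assembly genes Fbln5 and Efemp2 were read at 20.7 RPKM or more, while the elastin gene was close to unread. Values are RPKM, reads scaled to the gene model's length and to the library's depth. Fbn1 stood at 279 RPKM in heart cells and 67.5 in marrow cells, and Fbln2 at 254 and 237. Eln stood at 0.131 RPKM in heart cells and 0.00980 in marrow cells. Fbn1, Fbln1 and Efemp1 were higher in heart, Fbln5 and Mfap5 were higher in bone marrow, and Fbln2 and Efemp2 lay within 2-fold.

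**Figure D1:**
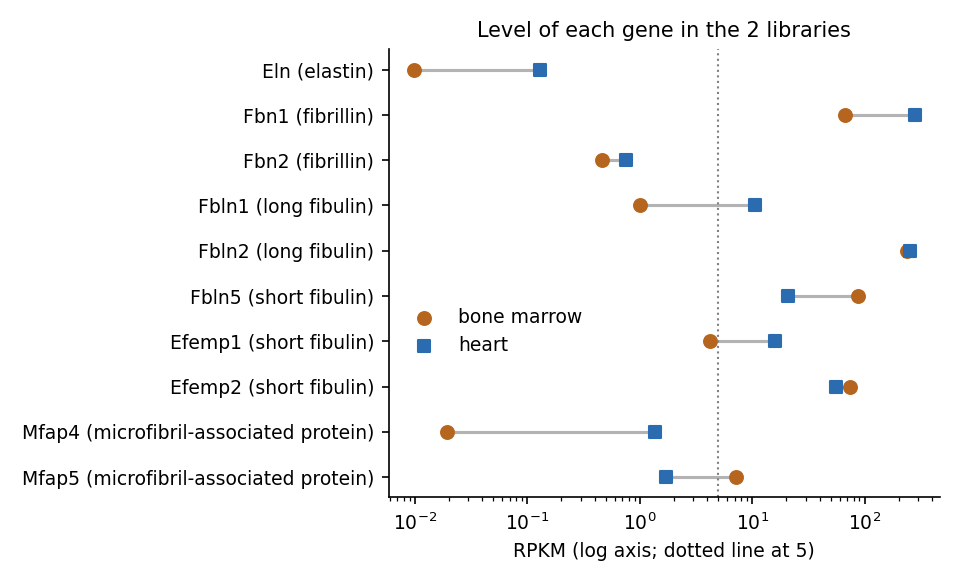
RPKM of the 10 genes (log axis) in the bone marrow library (circles) and the heart library (squares), 1 library each, with a dotted line at 5 RPKM. Eln lies far to the left in both libraries, and Fbn1 and Fbln2 lie far to the right.

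A gene was counted as higher in 1 of the libraries when its log2((heart + 1)/(bone marrow + 1)) on RPKM reached 1 in size and its larger value reached 5 RPKM. This log2 ratio understates differences of low genes. Of the 10 genes, 7 reached 5 RPKM in at least 1 library. Of these 7, 3 were at least 2-fold higher in heart, where 7.56% of all 7659 genes at that level were, and 2 passed the same limit toward bone marrow, where 9.51% did. Together 5 of 7 (71.4%) were 2-fold apart, beside 17.1% of all genes. The members were chosen with earlier results of these data known, so this share is a description only. In the 5 related lists given below, the share ran from 0% (elastin receptor and integrins) to 100% (elastin-degrading proteases). It was 64.3% for other microfibril and elastic fibre glycoproteins. The median log2 ratio of the 7 was 0.10, beside -0.15 over the 7659 genes, with members on both sides. Eln, Fbn2 and Mfap4 were below 5 RPKM in both libraries and could not be counted.

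**Figure D2:**
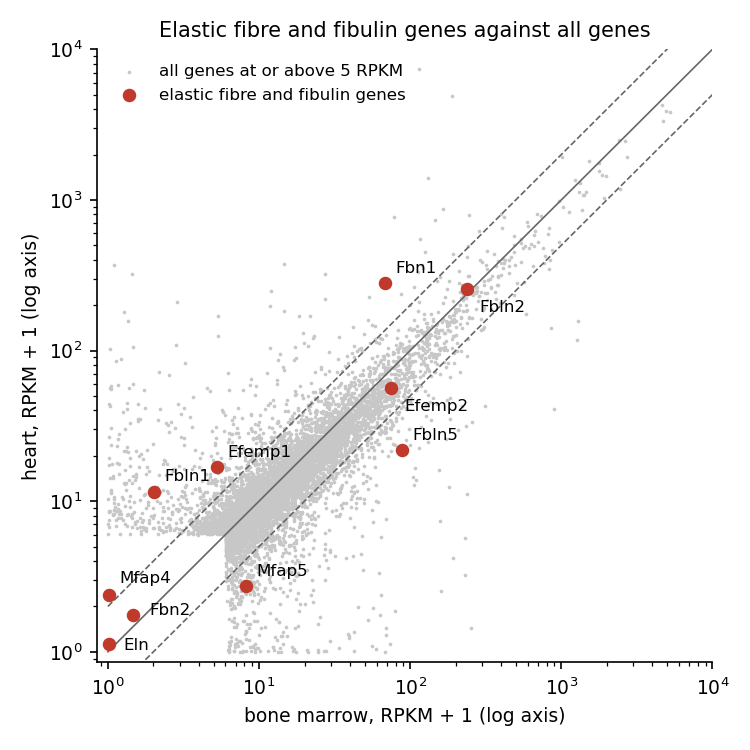
RPKM + 1 of each gene in bone marrow (x) and heart (y), both on log axes. Grey points are the 7659 genes that reached 5 RPKM in at least 1 library, red points are the 10 members, the solid line is equality and the dashed lines are 2-fold. Fbn1, Fbln1, Efemp1 and the low gene Mfap4 lie above the upper dashed line, and Fbln5 and Mfap5 lie below the lower one.

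Promoter sequences from RefSeq (GRCm38.p6) were read for 6 of the 10 genes. Those of Eln, Fbn2, Mfap4 and Mfap5 were not read, which does not show that no entry exists for them. The 250 bases before the most upstream RefSeq start are printed for 3 members at least 2-fold apart whose windows hold at most 1 base of an annotated exon, to show what lies before genes that differ in opposite directions. Fbln1 and Efemp1 were higher in heart, and Fbln5 was higher in bone marrow. Sequences run 5′ to 3′ on the strand of the gene. Capitals mark the GC box (GGGCGG or CCGCCC, either strand) and an AP-1-like pattern (TGANTCA, any base at N, either strand), which do not overlap here.
Fbln1, chr15:85205699-85205948, plus strand: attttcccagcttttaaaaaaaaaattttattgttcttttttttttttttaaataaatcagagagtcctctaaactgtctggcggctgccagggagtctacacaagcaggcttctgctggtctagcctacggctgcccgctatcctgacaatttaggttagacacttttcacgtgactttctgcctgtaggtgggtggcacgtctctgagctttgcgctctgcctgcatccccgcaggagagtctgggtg
Efemp1, chr11:28852955-28853204, plus strand: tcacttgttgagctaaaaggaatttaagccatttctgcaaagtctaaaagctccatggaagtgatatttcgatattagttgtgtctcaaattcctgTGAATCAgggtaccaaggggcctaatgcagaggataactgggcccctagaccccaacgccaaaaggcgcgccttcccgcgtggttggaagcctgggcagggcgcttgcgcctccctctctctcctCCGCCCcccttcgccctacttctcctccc
Fbln5, chr12:101819120-101819369, minus strand: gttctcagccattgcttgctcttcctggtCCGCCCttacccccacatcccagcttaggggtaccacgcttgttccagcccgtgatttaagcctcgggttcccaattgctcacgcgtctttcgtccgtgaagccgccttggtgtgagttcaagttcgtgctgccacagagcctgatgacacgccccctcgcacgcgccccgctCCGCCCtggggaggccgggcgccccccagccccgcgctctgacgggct

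The GC box was found 2 times before Fbln5, 1 time before Efemp1 and not in the Fbln1 window, where 33.0% of 27025 promoter windows of the same length held at least 1. In the windows not printed, it was found 2 times before Efemp2 and 1 time each in those of Fbn1 and Fbln2. All 250 bases of the Fbn1 window and of the Fbln2 window lie in an annotated exon. Both windows lie inside the deposited gene region, so neither shows the sequence before it. The AP-1-like pattern was found 1 time, before Efemp1, and in 6.85% of all windows. Its match there has A in the middle, where the usual AP-1 site has C or G. The TATA box (TATAAA, either strand) was in none of the 6 windows and in 13.0% of all. The E-box (CANNTG) was found 1 time before each of the 3 genes printed, and in 66.1% of all windows. The share of G and C was 46.4% before Fbln1, 53.6% before Efemp1 and 65.2% before Fbln5, beside a median of 52.0% over all windows. It was 59.2% in the Fbn1 window, 58.8% in the Fbln2 window and 59.2% before Efemp2. These matches are a description of the letters and do not show a binding site.

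The libraries held 53999963 reads for bone marrow and 64872683 for heart, recovered from the step size of the deposited values. Where reads were recovered, ratios carry a 95% exact interval of the reads, which covers counting error only: without molecular identifiers, reads do not stand for separate molecules. The culture label was checked with marker genes. Of 9 mesenchymal stromal markers, 6 reached 5 RPKM in marrow cells and 8 in heart cells. Of those at or above 5 RPKM, the 4 that were 2-fold apart were all higher in heart. Those 4 were Eng (endoglin), at 0.576 RPKM in marrow cells and 33.9 in heart cells, Thy1, at 0.0603 and 16.7, Col3a1, at 129 and 1388, and Pdgfra, at 11.6 and 27.6. Col1a1 was at 1777 and 1751 RPKM. Nt5e, below 5 RPKM in both libraries, went the other way, at 1.59 RPKM in marrow cells and 0.225 in heart cells. All 6 cardiomyocyte markers, 5 of 6 endothelial and 5 of 6 haematopoietic markers were below 1 RPKM in both libraries. The exceptions were the endothelial marker Vwf, at 1.13 RPKM in marrow cells and 0.00768 in heart cells, and the haematopoietic marker Cd14, at 2.79 and 2.97. None of the cardiomyocyte, endothelial and haematopoietic markers was listed at 0 in both. Nes itself stood at 1.20 RPKM in marrow cells and 8.74 in heart cells.

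Eln (chromosome 5, 134702593 to 134747323, minus strand, GRCm38) encodes tropoelastin, the soluble monomer of the elastic core. Its RPKM values are whole multiples of 1 read (bone marrow) and 16 reads (heart), and the true numbers may be a common multiple of these, since the length of the authors' gene model is not known. At the length of the matching GENCODE model they would be about 4.29 and 68.6 reads. Heart exceeded bone marrow 13.3-fold in RPKM, with an interval of 2.07 to 559 if the numbers are 1 and 16, the widest case. On the log2 scale with 1 added the same difference was 0.16, because both levels are far below 1 RPKM. Among the 10 genes Eln was last in both libraries. Fbn1 exceeded it 6890-fold in bone marrow and 2134-fold in heart, ratios of RPKM whose error is that of the few Eln reads.

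Smooth muscle cells are a main source of elastin in arteries, so their markers are given beside this level. Of 8 smooth muscle markers, 5 were at or above 5 RPKM and all 5 were 2-fold or more toward bone marrow, as were 9.51% of all genes at that level. Acta2 (smooth muscle alpha-actin) led them, at 889 RPKM in marrow cells against 40.1 in heart cells. The summed level of the 8 markers was 1308 RPKM in marrow cells and 90.6 in heart cells. The muscle myosin gene Myh11 and the desmin gene Des were below 1 RPKM in both. Eln stood at 0.00980 RPKM in marrow cells, from few reads, and at 0.131 in heart cells. In bulk RNA, fewer cells of a type and less RNA per cell cannot be told apart, and the part of smooth muscle genes in the values of the 10 genes was not tested.

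Fbn1 (chromosome 2, 125300594 to 125507993, minus strand) encodes fibrillin-1, the main microfibril protein after birth and the gene mutated in Marfan syndrome. It stood at 67.5 RPKM in marrow cells and 279 in heart cells (44238 and 219190 reads). The level in heart was 4.12 times that in bone marrow, with a counting interval of 4.08 to 4.17. In heart it ranked 111th of all gene symbols by RPKM, and in bone marrow 614th. Gm9913, a gene on the opposite strand within Fbn1, stood at 0.497 RPKM in marrow cells and 2.30 in heart cells. Without known use of strand, reads of the pair cannot be told apart, and Gm9913 was far lower per length in both libraries.

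Fbn2 (chromosome 18, 58008623 to 58209926, minus strand, as in the files) encodes fibrillin-2, known mainly from embryonic microfibrils. It stood at 0.463 RPKM in marrow cells and 0.760 in heart cells. A length of 10480 bases is the only one between 300 and 20000 that gives whole reads in both, 262 and 517, a ratio of 1.64 with an interval of 1.41 to 1.91. Fbn2 was thus read at a low level in both cultures, and Fbn1 exceeded it 146-fold in bone marrow and 366-fold in heart. The fibrillin RNA of both cultures was almost wholly that of Fbn1.

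Fbln5 (chromosome 12, 101746565 to 101819055, minus strand) encodes fibulin-5, a short fibulin that binds tropoelastin, the enzyme Loxl1 and integrins. It stood at 86.8 RPKM in marrow cells and 20.7 in heart cells. It was 4.19-fold higher in bone marrow, with an interval of 4.09 to 4.30 from the smallest whole read numbers that the values allow, 27334 and 7838. Its log2 ratio with 1 RPKM added was -2.02.

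Efemp2 (chromosome 19, 5473973 to 5481853, plus strand, as in the files) encodes fibulin-4, which binds lysyl oxidase and is needed for elastic fibres and for normal collagen fibrils. It stood at 74.1 RPKM in marrow cells and 55.3 in heart cells, a log2 ratio of -0.42. Against the median of genes that reached 5 RPKM in each library it was -0.28. The level in heart was 0.746 times that in bone marrow, with an interval of 0.725 to 0.767 at 10601 and 9497 reads, the smallest whole numbers allowed. The difference is beyond counting error but within 2-fold, and whether other cultures would show it cannot be judged from 1 library each.

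Efemp1 (chromosome 11, 28853204 to 28926743, plus strand) encodes fibulin-3, a short fibulin known from fascia and from the membrane beneath the retina. It stood at 4.25 RPKM in marrow cells and 15.9 in heart cells, or 468 and 2096 reads. This is a 3.73-fold higher level in heart, with an interval of 3.37 to 4.13. The short fibulins therefore did not share a direction: Fbln5 exceeded Efemp1 20.4-fold per length in bone marrow and 1.31-fold in heart. Their summed level was 165 RPKM in marrow cells and 91.9 in heart cells.

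Fbln1 (chromosome 15, 85205949 to 85286535, plus strand) encodes fibulin-1, a long fibulin that binds fibronectin and proteoglycans and is known from heart valves and vessel walls. It stood at 1.01 RPKM in marrow cells and 10.5 in heart cells, or 239 and 2986 reads. This is a 10.4-fold higher level in heart, with an interval of 9.11 to 11.9, and a log2 ratio of 2.52 with 1 RPKM added. On RPKM without that addition, the low genes Mfap4 and Eln had larger ratios, 71.6 and 13.3.

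Fbln2 (chromosome 6, 91212455 to 91272540, plus strand) encodes fibulin-2, a long fibulin of heart valves, vessels and basement membranes. It stood at 237 RPKM in marrow cells and 254 in heart cells, or 81418 and 104876 reads, a log2 ratio of 0.10, or 0.24 above the median of genes that reached 5 RPKM in each library (-0.14). Its RPKM ratio of 1.07 had a counting interval of 1.06 to 1.08. Fbln2 was the highest of the 10 genes in bone marrow and second in heart, with ranks of 133 and 123 among all gene symbols. It exceeded the other long fibulin, Fbln1, 234-fold in bone marrow and 24.1-fold in heart.

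Mfap5 (chromosome 6, 122505845 to 122529290, plus strand) encodes a small glycoprotein that binds fibrillins. It stood at 7.21 RPKM in marrow cells and 1.71 in heart cells, or 1397 and 399 reads. It was 4.21-fold higher in bone marrow, with an interval of 3.76 to 4.71, while Fbn1, whose product it binds, was higher in heart. With 5 instead of 1 added to each value, its log2 ratio was -0.86 and it was no longer counted.

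Mfap4 (chromosome 11, 61485431 to 61488900, plus strand) encodes a fibrinogen-related protein that binds elastin and microfibrils. It stood at 0.0193 RPKM in marrow cells and 1.38 in heart cells, or 2 and 172 reads, a ratio of 71.6 with an interval of 19.5 to 596. It was below 5 RPKM in both and so was not counted. The last 89 bases of Mfap4 overlap Mapk7 on the opposite strand, which stood at 5.79 RPKM in marrow cells and 5.49 in heart cells. The level of that neighbour was nearly equal in the libraries, and the part of its reads in the Mfap4 value was not tested.

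**Figure D3:**
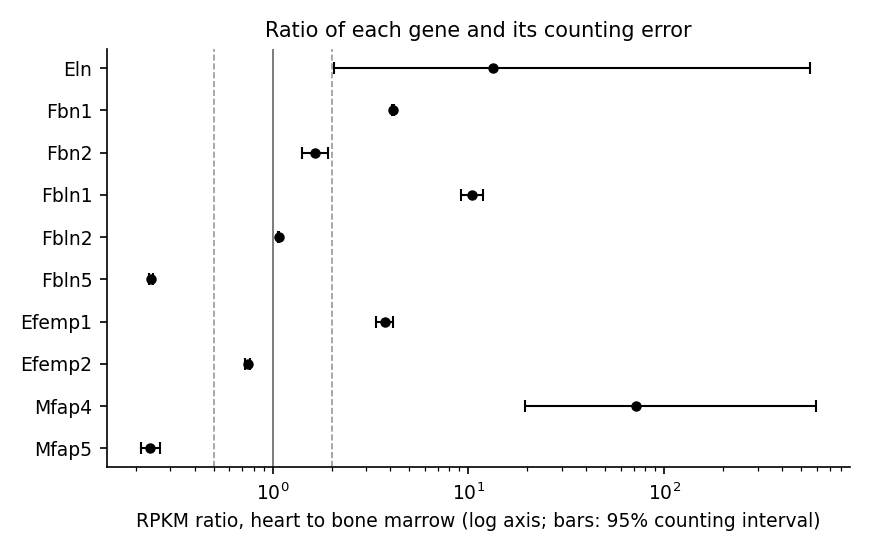
RPKM ratio of heart to bone marrow for each of the 10 genes (log axis), with bars for the 95% counting interval, a solid line at equality and dashed lines at 2-fold. The bars are narrow except for Eln and Mfap4, which rest on few reads in bone marrow.

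The make-up of the group differed between the cultures. The summed RPKM of the 10 genes was 478 in bone marrow and 639 in heart. Fbln2 made up 49.5% of this sum in bone marrow and 39.7% in heart, and Fbn1 14.1% and 43.6%. The 3 short fibulins together made up 34.6% in bone marrow and 14.4% in heart. In bone marrow the order from high to low was Fbln2, Fbln5, Efemp2, Fbn1, Mfap5, Efemp1, Fbln1, Fbn2, Mfap4 and Eln. In heart it was Fbn1, Fbln2, Efemp2, Fbln5, Efemp1, Fbln1, Mfap5, Mfap4, Fbn2 and Eln. Neighbours of similar level, such as Fbn1 and Fbln2 in heart or Fbln5, Efemp2 and Fbn1 in bone marrow, cannot be ranked beyond these libraries, since no spread between cultures was measured. Per length, Fbn1 was 0.778 times Fbln5 in bone marrow and 13.4 times in heart.

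**Figure D4:**
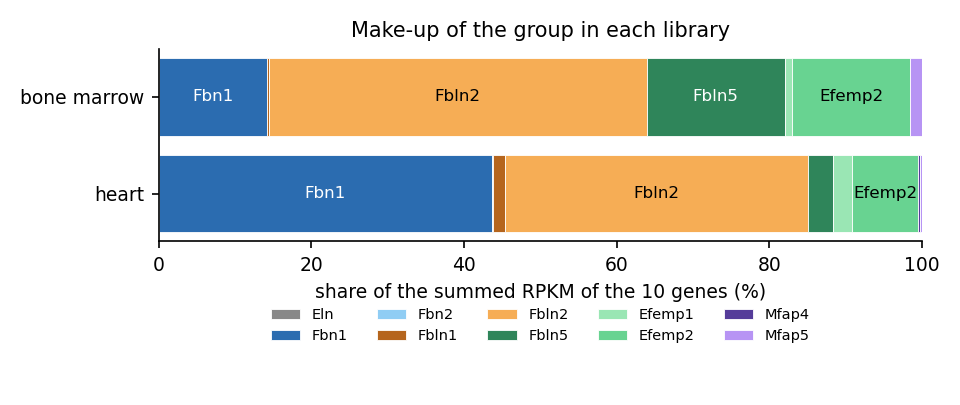
Share of each gene in the summed RPKM of the 10 genes (%), as 1 stacked bar per library. Fbn1 takes 14.1% of the bone marrow bar and 43.6% of the heart bar, and Fbln5 takes 18.2% and 3.24%.

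Other genes of the elastic fibre were read from 5 lists of 62 genes. Among 24 other microfibril and elastic fibre glycoproteins, 14 reached 5 RPKM; 5 of these were higher in heart, 4 were higher in bone marrow and 5 lay within 2-fold. Their median log2 ratio was 0.21. Mfap2, the fibrillin-binding paralogue of Mfap5, stood at 3.75 RPKM in marrow cells and 52.9 in heart cells, 14.1-fold higher in heart with an interval of 12.4 to 16.1, opposite in direction to Mfap5. Adamtsl4, whose product binds fibrillin-1 and is known from the lens ligament, stood at 17.5 and 1.07 RPKM, 16.3-fold higher in bone marrow with an interval of 14.5 to 18.5. Adamtsl3, of the same family, stood at 26.7 and 3.05 RPKM. Ltbp1, which encodes a latent TGF-beta binding protein, stood at 27.4 RPKM in marrow cells and 2.61 in heart cells. Its relatives did not share this direction. Ltbp3, at 17.6 and 56.8 RPKM, and Ltbp4, at 2.72 and 16.2, were higher in heart. Ltbp2, at 16.2 and 13.4, lay within 2-fold.

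The fibulins that were not among the 10 genes were low. Fbln7 stood at 0.476 RPKM in marrow cells and 1.09 in heart cells. Hmcn1, which encodes the giant matrix protein hemicentin-1 (also called fibulin-6), stood at 0.00437 and 1.81 RPKM, from 5 and 2490 reads. Its relative Hmcn2 stood at 0.0611 and 0.240 RPKM. All 3 are below 5 RPKM and were named after their values were seen.

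Of 5 crosslinking enzymes, 4 were at or above 5 RPKM, 1 of them higher in heart, 2 higher in bone marrow and 1 within 2-fold; the median log2 ratio was -0.51. Lox, the lysyl oxidase that Efemp2 binds, stood at 1288 RPKM in marrow cells and 156 in heart cells, 8.28-fold higher in bone marrow. Loxl1, the partner of Fbln5 at elastic fibres, stood at 43.1 and 98.2 RPKM, 2.28-fold higher in heart with an interval of 2.22 to 2.34. Loxl3 stood at 25.9 and 11.8 RPKM. Both cultures thus held crosslinking enzyme RNA at levels far above that of Eln.

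Of 12 genes of the elastin receptor complex and of integrins, 8 reached 5 RPKM and all 8 lay within 2-fold, with a median log2 ratio of 0.29. Only 17.1% of all genes at that level were 2-fold apart, so most genes lay within 2-fold. The other 4 were below 5 RPKM. Of these, Itga8 stood at 0.475 RPKM in marrow cells and 3.25 in heart cells, and Itga9 at 1.27 and 3.80. Itga4 stood at 0.0477 and 0.0221 RPKM, and Itgb6 at 0.00521 and 0.00434. Of 11 elastin-degrading proteases, 3 were at or above 5 RPKM and all 3 were higher in heart, with a median of 1.68. Over all 11 the median was 0.19, and 6 of the 11 were below 1 RPKM in both libraries. The cathepsin gene Ctsk stood at 125 RPKM in marrow cells and 451 in heart cells, the gelatinase gene Mmp2 at 246 and 792, and the cathepsin gene Ctsl at 398 and 803. Mmp12, below 5 RPKM, stood at 0 RPKM in marrow cells and 4.53 in heart cells (0 and 2126 reads). Ctss went the other way, from 1 and 0 reads. Of 10 partners of fibulins in other matrix, 7 reached 5 RPKM, 3 of them higher in heart and 4 within 2-fold; the median log2 ratio was 0.92. Those 3 were Dcn (decorin), at 11.0 and 247 RPKM, Vcan (versican, a ligand of Fbln1 and Fbln2), at 10.9 and 103, and Nid1 (nidogen-1), at 20.7 and 167. Fn1, which encodes fibronectin, stood at 1315 RPKM in marrow cells and 1129 in heart cells.

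**Figure D5:**
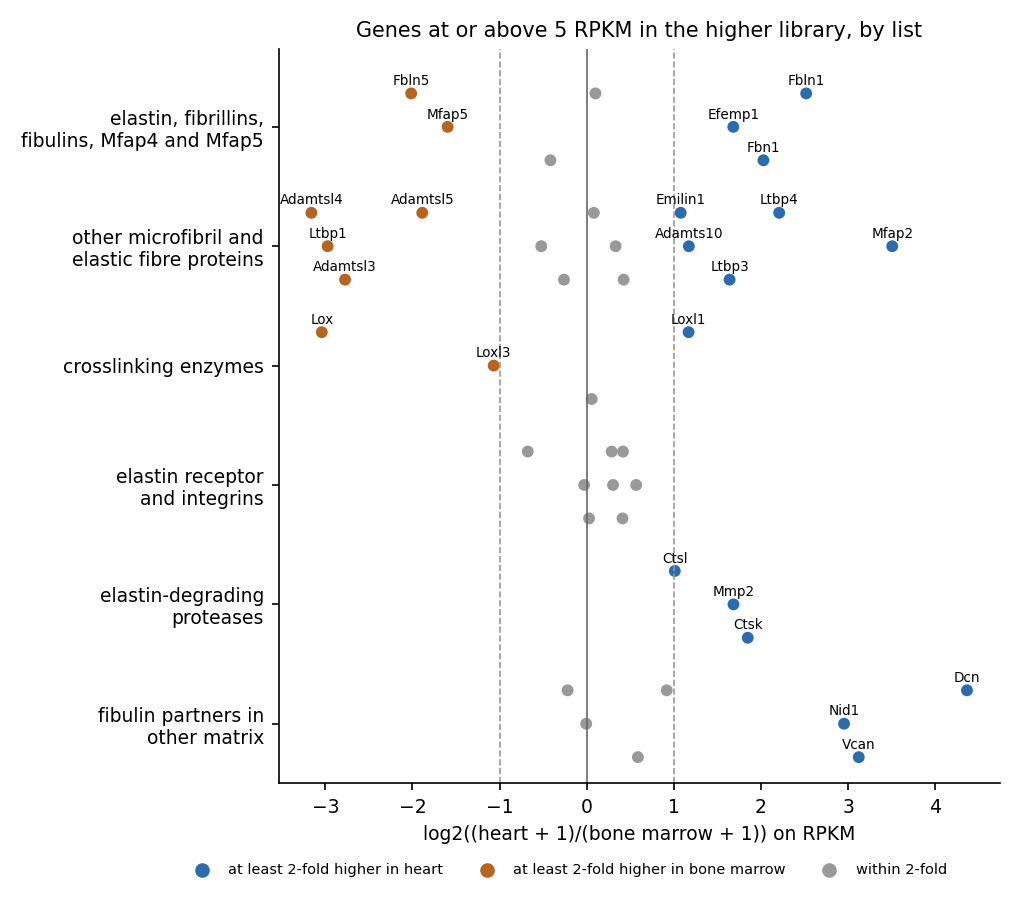
log2((heart + 1)/(bone marrow + 1)) on RPKM for genes that reached 5 RPKM, by list, with dashed lines at 2-fold. Points are spread vertically for legibility only. The 10-gene group and the other microfibril proteins lie on both sides, and the elastin receptor and integrin genes lie between the dashed lines.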

How the data were processed

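RNA sequencing libraries were made from 1 ug of total RNA by standard Illumina protocols, per the labels' protocols, 1 for each tissue. Per the file headers, the authors deposited RPKM values, and the tables hold 49585 gene rows. The sources used here do not give the aligner, the counting tool or whether strand was used. The submitters' processing notes name the build mm8. However, 45149 rows (91.1%) carry the exact region of a GRCm38 gene in GENCODE M21, so coordinates are read on GRCm38.

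Library totals were recovered with exon-union lengths of those models: 12292 of 14255 genes (86.2%) above 0 in both libraries came out whole within 0.02 reads. For Eln, Fbln5, Efemp2 and Fbn2 they did not, or no model matched, and lengths from 300 to 20000 bases were searched for whole reads in both (within 0.0001) and the shortest was used. Intervals are exact conditional (Clopper-Pearson) 95% intervals. Of rows with a common symbol, the one with the larger mean was kept. No count model was fitted. The members and lists were chosen with earlier results of these data known. Named genes are all 10 members and up to 4 genes of each list with the largest 2-fold difference. Genes given to describe a level, a relative of a named gene or a gene below 5 RPKM are exceptions, picked with their values known. Pseudocounts, floors, fold thresholds and scalings were varied. The code for totals, counts and intervals was tested on simulated data with known gene lengths and counting error only. That test does not cover genes of unknown length or the spread between cultures. The tools were numpy 2.4.6, scipy 1.17.1 and pandas 2.3.3 under Python 3.11.15, with figures by matplotlib 3.10.9.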

Additional observations from a re-analysis of the deposited data

How the results depend on the processing

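No paired analysis was possible because each tissue has 1 library. The counts of 3 members toward heart and 2 toward bone marrow did not move with 0.1 added, under each scaling and with rows of a name summed. Toward bone marrow the count was 1 with 5 added, and 1 with reads alone, which could be used for 6 members; toward heart it stayed at 3 in both. With a 4-fold threshold the counts were 2 toward heart and 1 toward bone marrow, with a floor of 20 RPKM 1 and 1, and with a floor of 1 RPKM or none 4 and 2. The median log2 ratio over all 10 members was 0.22; it was 0.84 with 0.1 added, 0.0875 with 5 added, 1.97 for the 6 members with reads, and 0.66 with members below 1 RPKM in both left out. Scaling to a median ratio of 0 over abundant genes, which were shifted by -0.15 (log2), gave 0.29, the upper quartile 0.24 and a trimmed mean 0.23. No member changed direction in any of these. Over all genes, the heart share of 2-fold differences was 44.3% as deposited and 54.2% with the median set to 0. Values of Eln and of Mfap4 in bone marrow are limited by depth.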
